A study of Homo sapiens with 402 samples.

Results

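Arsenic and cadmium were compared directly at 25 µM in MCF10A cells, a non-tumorigenic epithelial line from human breast that the labels give as wild type. The members were 6 of the 402 libraries: the 4 labelled Arsenic 25 and 2 of those labelled Cadmium 25, all on plate 3153-AT and carrying its plate barcode. A further library labelled Cadmium 25 carried the barcode of plate 3284-AT and was left out of the comparison. All 6 wells held 500 cells at seeding and were lysed 48 h after the metal was added, with water named as the solvent, and RNA was read from the lysates by plexWell, a pooled, well-barcoded form of RNA sequencing. The labels name the metals without their salts. They speak of biological replicates and do not say that these came from separate cultures. The p-values therefore measure a spread between wells of 1 cell line. That spread was estimated over all 93 libraries of the plate, controls included, and the cadmium pair was assumed to share it. No control library entered the difference. The 15 water controls of the plate are given as a background level beside the values, with no test against them.

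Both metals bind sulfhydryl groups of proteins and burden the cell's folding and redox systems. Damaged cytosolic proteins release HSF1, which drives heat shock chaperones, and oxidised KEAP1 releases NRF2, which drives glutathione, thioredoxin and heme oxygenase genes. Unfolded protein in the endoplasmic reticulum raises its chaperones through ATF6 and IRE1. Kinases that phosphorylate eIF2α raise ATF4 and its amino acid supply genes, heme-regulated HRI being the one best known for arsenite. Metallothioneins are small cysteine-rich proteins that bind cadmium and zinc and are driven by MTF1 when free zinc rises.

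The cadmium libraries stood apart from the rest of the plate. They held 1.43 M and 1.45 M reads (M, 1e+06 reads), against 7.27 M to 12 M for arsenic and 1.93 M to 25.8 M for the other 87 libraries of the plate. Mitochondrially coded genes took 39.34% and 46.83% of the cadmium reads, 5.25% to 7.68% of the arsenic reads and 7.15% to 11.93% elsewhere on the plate. At an equal depth of 773447 reads outside those genes, 10478 and 10220 genes were detected with cadmium, 14548 to 15280 with arsenic and 11917 to 14077 in the water controls. Of 6577 genes with a control median of at least 20 CPM (counts per 1e+06 reads of the TMM-scaled library size), 317 and 451 had no read with cadmium, against 1 to 4 with arsenic and 0 to 1 in the controls. The 2 cadmium libraries also differed more from each other at equal depth, by a median of 0.752 on the log2 scale over those genes, than arsenic replicates 1 and 2 (0.269) or 3 and 4 (0.29). In bulk lysates, fewer cells and less RNA per cell cannot be told apart. The part of depth and of the mitochondrial share in the results below was not tested beyond the alternatives that remove those genes, thin the reads or leave out 1 library. The left-out library had 1.28 M reads with 9.99% on mitochondrially coded genes.

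**Figure D1:**
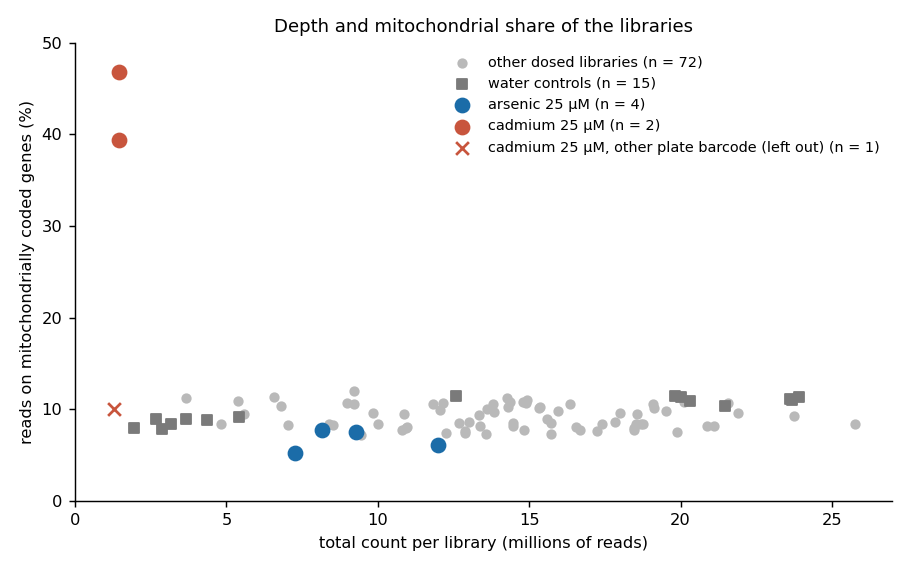
Total count per library (x axis, M reads) against the share of reads on mitochondrially coded genes (y axis, %), 1 point per library. The 2 cadmium 25 µM libraries lie at 39.34% and 46.83% with under 1.5 M reads, the 4 arsenic libraries at 5.25% to 7.68%, and the left-out cadmium library at 9.99%.

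Mammary epithelial markers were present in both groups. The summed level of the 8 markers of this list was 2541 to 3207 CPM with arsenic, 7207 to 7465 CPM with cadmium and 2264 to 2892 CPM in the water controls. LAMB3 made up most of this sum with either metal, and KRT5 was below the control range with both. Of the 8, 4 (KRT5, KRT14, KRT17 and LAMB3) were called higher in cadmium, and 1 had no read in either cadmium library. The luminal markers summed to 764 to 849 CPM with arsenic and 739.5 to 878 CPM with cadmium. Of 5 tested, 1 was called higher in arsenic (0 to 2 over the 20 alternatives) and 2 had no read in either cadmium library. Leukocyte markers summed to at most 3.71 CPM with arsenic and 2.51 CPM with cadmium, and endothelial markers to at most 3.64 CPM with arsenic and 0 with cadmium. The fibroblast markers summed to 30.3 to 50.3 CPM with arsenic and 26.4 to 47.6 CPM with cadmium, within the 24.4 to 147 CPM of the controls.

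At an adjusted p under 0.05 (the quasi-likelihood test of edgeR, with p-values adjusted over all genes by Benjamini-Hochberg), 2079 of 24295 genes (8.56%) differed between the metals. Of these, 1030 (4.24%) were higher in arsenic and 1049 (4.32%) higher in cadmium. The genes tested include 11907 with no read in either cadmium library. Of 5139 commonly expressed genes (average log2 CPM of at least 5), 1437 were called, a larger share. The shares called in the lists below are to be read beside both. Upper-quartile scaling gave 629 higher in arsenic and 1518 higher in cadmium, shifting the median of 5139 commonly expressed genes by -0.271, and DESeq2 gave 3603 and 2348. With reads thinned to the smallest total the counts were 1040 higher in arsenic and 705 higher in cadmium, and with mitochondrially coded genes removed before thinning 583 and 704. All differences below are log2 values of arsenic minus cadmium with their standard errors (SE), so a negative value is a higher level in cadmium. The 4 arsenic and 2 cadmium libraries did not overlap for 7815 genes (32.2%) and for 1955 of the called ones. The comparison within replicates 1 and 2 called 1581 of 21703 genes (7.28%), and 1403 genes were called there and in the comparison of all 6 libraries, in the same direction. Without cadmium replicate 1 the count was 1043 and without cadmium replicate 2 it was 926. With 1 library in an arm the lone library is assumed to vary like the other groups. Among the genes higher in arsenic, 125 had no read in either cadmium library. For such genes the fitted value is no measure of size, and a lower bound is given that counts 3 reads over the cadmium pair, which is 1.99 CPM. The median difference was 0.81 over all genes tested and 0.13 over the 14362 genes with a fold or a bound. CPM do not correct for gene length, so levels are compared between libraries and not between genes.

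**Figure D2:**
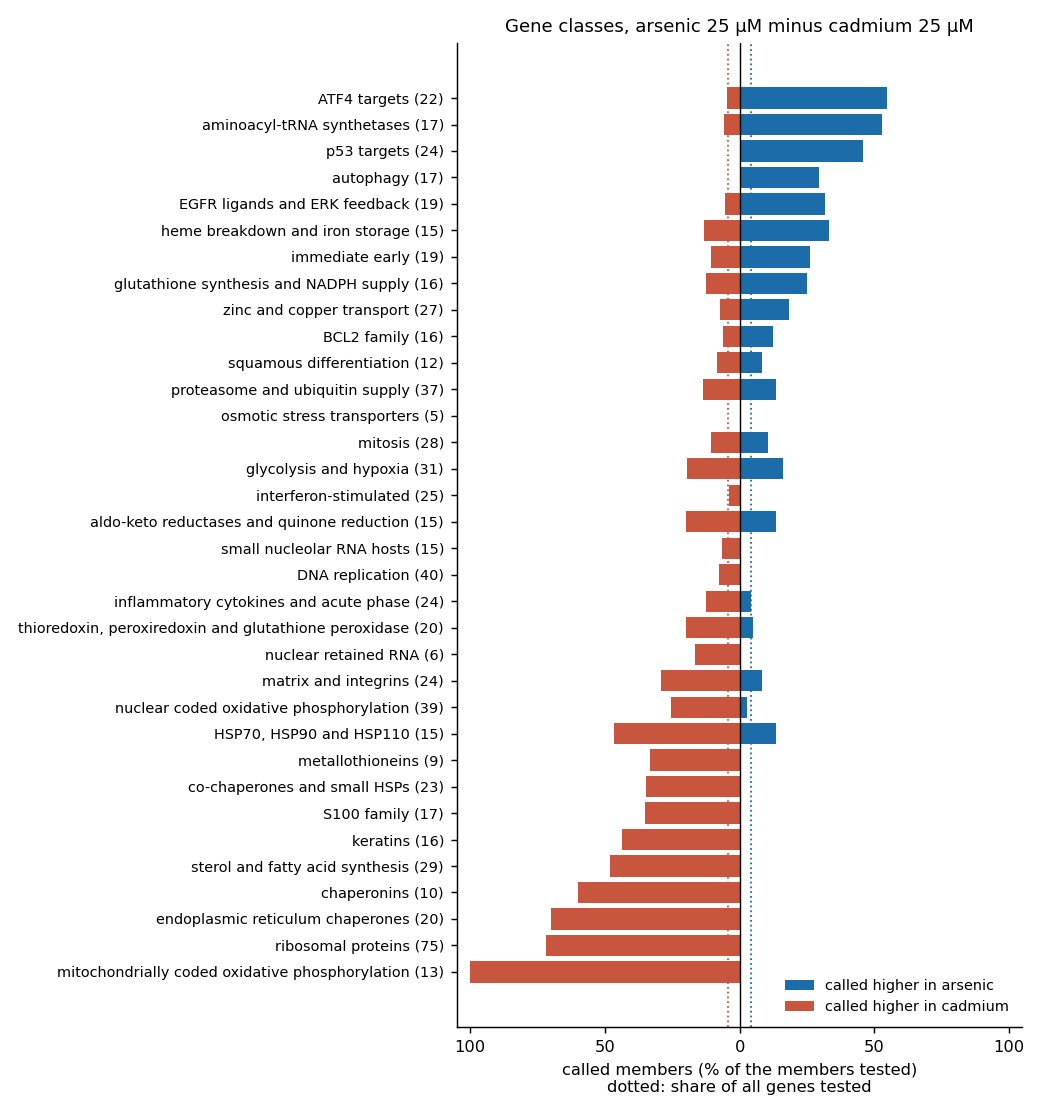
Share of the tested members of each gene list called higher in arsenic (right) or higher in cadmium (left), in % of the members tested. The y axis gives the lists, with the number tested in brackets. Dotted lines mark the share of all genes tested. Of commonly expressed genes a larger share, 1437 of 5139, was called in either direction. ATF4 targets, aminoacyl-tRNA synthetases and p53 targets extend to the right, and endoplasmic reticulum chaperones, chaperonins, ribosomal proteins and mitochondrially coded genes to the left.

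Inducible heat shock chaperones of the cytosol were higher in cadmium. Of 15 HSP70, HSP90 and HSP110 genes tested, 7 were called higher in cadmium and 2 higher in arsenic, with a median difference of -0.69. Of 23 co-chaperones and small heat shock proteins, 8 were called higher in cadmium and 0 in arsenic, with a median of -0.66. The stress-inducible members HSPA6, HSPA1A, DNAJB1, BAG3, HSPB1 and CRYAB were all among them, and with either metal each of these 6 lay above the range of the water controls. The other members called higher in cadmium were HSPA1B, HSPA8, HSPH1, HSP90AA1 and HSPA4L, an HSP110 relative, and the co-chaperones DNAJA1, STIP1, AHSA1 and FKBP4, partners of HSP70 or HSP90.

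HSPA6 is a strictly inducible HSP70 on chromosome 1 (161524540 to 161526910, plus strand, GRCh38). It stood at 573, 790.4, 633 and 602 CPM in arsenic replicates 1 to 4 and at 2979.6 and 5009 CPM in cadmium replicates 1 and 2, against 0 to 3.67 CPM in water. The difference was -2.62 ± 0.27, 6.14-fold higher in cadmium (adjusted p = 4.05e-14). Its lowest cadmium library was above its highest arsenic library. HSPA1A, the main inducible HSP70 (chromosome 6, 31815464 to 31817946), gave 470.0, 617, 461 and 492 CPM with arsenic and 2910.5 and 3366 CPM with cadmium, a difference of -2.62 ± 0.29 (adjusted p = 3.96e-12). Its neighbour HSPA1B gave 83.8 to 135 CPM and 777 and 864 CPM. The sequences of this pair are nearly identical, so the split of reads between them is uncertain. HSP90AA1, the inducible cytosolic HSP90, was at 1821, 1862, 1725 and 1175 CPM with arsenic, 3 of the 4 libraries lying above the 1145 to 1463 CPM of the controls, and at 9455 and 11442 CPM with cadmium (-2.67 ± 0.14, adjusted p = 5.79e-29). Its constitutive partner HSP90AB1 did not pass the test, with 4224 to 4777 CPM and 3993 and 3739 CPM (0.23 ± 0.11, adjusted p = 0.213, and -0.04 with upper-quartile scaling). HSPA8, the constitutive HSP70, had a smaller difference of -0.69 ± 0.16 (adjusted p = 0.00169), and HSPH1, the HSP110 exchange factor, one of -1.68 ± 0.24.

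The 2 members higher in arsenic were of other kinds. HSPA9, the HSP70 of the mitochondrial matrix, stood at 1649, 1621, 2039.5 and 2096 CPM with arsenic and 922 and 846 CPM with cadmium (1.07 ± 0.16, adjusted p = 1.8e-07), the latter within the 824 to 1198 CPM of the controls. HSPA2, an HSP70 best known from the testis, was at 57.9, 51.2, 37.3 and 37.8 CPM with arsenic and had no read in either cadmium library, which makes it at least 23-fold higher in arsenic (adjusted p = 0.00358). The call of HSPA2 was lost with either cadmium library left out (adjusted p = 0.119 without replicate 1 and 0.099 without replicate 2), and that of HSPA8 without replicate 1 (adjusted p = 0.0888).

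Among the co-chaperones, BAG3, which links HSP70 to autophagy of its clients, had the largest difference. It stood at 268, 276, 326 and 339.8 CPM with arsenic, 3541 and 3899.9 CPM with cadmium and 91 to 166 CPM in water (-3.62 ± 0.19, 12.3-fold, adjusted p = 2.05e-29). DNAJB1, the J-domain partner of inducible HSP70, gave 599, 734, 666 and 708 CPM and 4879 and 6231 CPM (-3.04 ± 0.22, adjusted p = 7.25e-21). Both cadmium libraries of BAG3 and DNAJB1 exceeded every arsenic library several fold. HSPB1, a small heat shock protein that holds unfolded clients, was at 567, 539, 399.8 and 482 CPM and 3196 and 3784 CPM (-2.81 ± 0.18). CRYAB, a related small heat shock protein, was nearly silent in water (0 to 2.87 CPM) and reached 110.0 to 132 CPM with arsenic and 667 and 709 CPM with cadmium (-2.48 ± 0.27). DNAJA1, another HSP70 partner, differed by -1.05 ± 0.15.

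The promoters of HSPA6, HSPA1A and HSPB1 are shown, picked because they hold the pair of inverted GAA units that heat shock factors recognise. Each line gives the 250 bases before the RefSeq transcription start (GRCh38.p14, 5′ to 3′ on the gene's strand), with matches to GAANNTTC or TTCNNGAA, searched on both strands, in capitals and overlapping matches merged. HSPA6 lies at chr1:161524290-161524539, HSPA1A at chr6:31815293-31815542 and HSPB1 at chr7:76302423-76302672, all on the plus strand.
HSPA6: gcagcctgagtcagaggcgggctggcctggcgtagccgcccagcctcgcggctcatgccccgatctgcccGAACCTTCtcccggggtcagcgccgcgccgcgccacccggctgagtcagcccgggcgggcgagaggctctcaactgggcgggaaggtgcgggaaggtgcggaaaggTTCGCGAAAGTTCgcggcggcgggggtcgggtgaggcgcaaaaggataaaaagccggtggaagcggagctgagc
HSPA1A: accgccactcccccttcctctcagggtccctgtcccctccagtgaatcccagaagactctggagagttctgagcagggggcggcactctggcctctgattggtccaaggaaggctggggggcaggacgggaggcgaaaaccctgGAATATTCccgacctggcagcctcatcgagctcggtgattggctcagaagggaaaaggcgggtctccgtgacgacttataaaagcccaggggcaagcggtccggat
HSPB1: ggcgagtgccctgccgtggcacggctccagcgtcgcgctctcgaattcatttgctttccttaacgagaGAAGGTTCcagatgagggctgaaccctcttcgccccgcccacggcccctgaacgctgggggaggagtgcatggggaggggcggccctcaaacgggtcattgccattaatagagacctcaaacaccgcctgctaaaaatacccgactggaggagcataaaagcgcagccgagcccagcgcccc
The pair occurred 3 times before HSPA6 and 1 time before each of the other two. It was found in 5 of the 14 HSP70, HSP90 and HSP110 promoters matched in the table (35.7%), in 7 of 19 of the co-chaperones (36.8%), in 0 of 19 of the endoplasmic reticulum chaperones, and in 11.7% of all 27305 promoters of this length. The windows of DNAJB1, BAG3, HSP90AA1 and HSPH1, also higher in cadmium, held no match to these letters. A match is a description of the sequence and not of binding.

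Chaperonins, the barrel-shaped folding machines, were also higher in cadmium, 6 of 10 called and 0 higher in arsenic (median -0.72). HSPE1, the lid of the mitochondrial chaperonin, stood at 112, 108, 62.3 and 52.6 CPM with arsenic, 467 and 389 CPM with cadmium and 92.9 to 172 CPM in water (-2.36 ± 0.23, adjusted p = 4.68e-14). Arsenic replicates 3 and 4 were below the controls and the cadmium libraries above them. CCT2, a subunit of the cytosolic chaperonin that folds actin and tubulin, gave 242, 219, 199.5 and 171 CPM and 482 and 393 CPM (-1.08 ± 0.14, adjusted p = 3.87e-09), below and above the 283 to 339.7 CPM of water. The others called were CCT3, CCT5, CCT6A and CCT7, subunits of the same ring.

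The counts of heat shock genes called higher in cadmium varied little with the settings tried, but the medians moved. That of the HSP70, HSP90 and HSP110 genes ran from -0.96 to -0.12. With the left-out cadmium library included, 5 of these genes were called higher in cadmium and 4 higher in arsenic (median -0.23). The co-chaperones then had 8 higher in cadmium and 0 in arsenic (median -0.24). Over the 20 alternatives, 5 to 7 of the HSP70, HSP90 and HSP110 genes, 6 to 11 of the co-chaperones and 6 to 7 of the chaperonins were called higher in cadmium.

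Chaperones of the endoplasmic reticulum fold secreted and membrane proteins. Of 20 tested, 14 were called higher in cadmium (70.0%) and 0 in arsenic, with a median difference of -1.75. The ones with the widest difference, MANF, PDIA4, SDF2L1 and CRELD2, are secretory pathway proteins that lay within or below the control range with arsenic. Over the 20 alternatives 11 to 16 members were called higher in cadmium, the 11 being without cadmium replicate 1.

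MANF, a secreted factor retained in the endoplasmic reticulum by HSPA5 (chromosome 3, 51385047 to 51389397), stood at 45.5, 34.6, 42.1 and 43.7 CPM with arsenic and 1182 and 1019 CPM with cadmium. Water controls held 58.6 to 99.97 CPM, above every arsenic library and far below both cadmium libraries. The difference was -4.73 ± 0.18, 26.5-fold (adjusted p = 7.35e-40). PDIA4, a protein disulfide isomerase (chromosome 7, 149003062 to 149028641, minus strand), gave 84.8, 78.4, 69.2 and 83.7 CPM with arsenic, 1704 and 1438 CPM with cadmium and 227 to 296 CPM in water (-4.31 ± 0.14, 19.8-fold, adjusted p = 1.52e-44). SDF2L1, which keeps HSPA5 cycling, was at 26.7 to 46.8 CPM and 281 and 369.7 CPM (-3.21 ± 0.26). CRELD2, a secreted stress-inducible protein, was at 26.9 to 48.2 CPM and 339 and 325 CPM (-3.10 ± 0.22).

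HSPA5, the luminal HSP70 that restrains the stress sensors (chromosome 9, 125234853 to 125241330, minus strand), was above the controls with both metals. It stood at 1895, 1987, 2274 and 2459 CPM with arsenic, 12149 and 8983 CPM with cadmium and 473 to 629 CPM in water (-2.29 ± 0.16, 4.91-fold, adjusted p = 1e-21). HSP90B1, its HSP90 counterpart, was at 535, 541, 588 and 491 CPM with arsenic, where all 4 libraries lay within the control range of 435 to 625 CPM, and at 4716 and 3726 CPM with cadmium (-2.97 ± 0.14, adjusted p = 1.58e-33). The calcium-binding lectin CALR gave 933 to 1038 CPM and 4071 and 3354 CPM (-1.92 ± 0.11). The smallest called difference was that of DNAJB9, an IRE1-regulated HSPA5 partner, with 93.2, 95, 121 and 119 CPM and 288 and 157 CPM (-1.07 ± 0.28, adjusted p = 0.00498). Its call was lost without cadmium replicate 1 (adjusted p = 0.885).

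Targets of ATF4, the factor translated when eIF2α is phosphorylated, went mostly the other way. Of 22 tested, 12 were called higher in arsenic and 1 in cadmium, with a median difference of 1.68 (1.54 with bounds). The 12 held serine synthesis enzymes, amino acid transporters and stress factors, with MTHFD2, CEBPB, ATF5, STC2 and SLC7A1 beside those described next, and the 1 exception was PPP1R15A. Over the 20 alternatives 8 to 14 members were called higher in arsenic and 1 to 2 higher in cadmium.

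ATF4 itself stood at 585, 579, 496 and 490.1 CPM with arsenic and at 134 and 176 CPM with cadmium, where the controls held 148 to 214 CPM (1.80 ± 0.24, adjusted p = 1.26e-08). Of the serine pathway, PHGDH, its first enzyme, gave 629, 572, 702 and 611 CPM with arsenic and 90.4 and 186 CPM with cadmium (2.20 ± 0.22, 4.60-fold, adjusted p = 1.08e-13). PSAT1, the second enzyme, gave 318 to 441 CPM and 123 and 143 CPM (1.52 ± 0.23). The third enzyme, PSPH (chromosome 7, 56011051 to 56051604, minus strand), was at 102, 100.3, 104 and 94.4 CPM with arsenic and had no read with cadmium, which makes it at least 50.1-fold higher in arsenic (adjusted p = 3.6e-11). For all 3 enzymes no arsenic library overlapped a cadmium library.

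SLC38A2, a transporter of neutral amino acids, was at 289, 253, 349 and 381 CPM with arsenic and 31.4 and 74.2 CPM with cadmium, the latter below the 180.3 to 330.3 CPM of the controls (2.62 ± 0.32, adjusted p = 1.76e-10). NUPR1, a small stress-induced chromatin protein, gave 859.9, 879.6, 716 and 753 CPM and 76.6 and 84 CPM against 0 to 38.5 CPM in water (3.32 ± 0.52, 10.0-fold, adjusted p = 7.41e-07). CHAC1, which degrades glutathione, was at 225 to 239.6 CPM and 62.8 and 63 CPM (1.88 ± 0.37). NUPR1 and CHAC1 were above the controls with both metals, and higher with arsenic. ASNS, asparagine synthetase, was barely detected, at 2.57, 1.68, 3.90 and 2.87 CPM with arsenic and 0 with cadmium, and did not pass the test (adjusted p = 0.918).

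PPP1R15A, the phosphatase subunit that reverses eIF2α phosphorylation, was at 606, 641, 572 and 609.8 CPM with arsenic and 2226 and 2173 CPM with cadmium, both far above the 8.81 to 27 CPM of the controls (-1.86 ± 0.21, adjusted p = 9.12e-12). DDIT3, the pro-apoptotic factor CHOP, did not pass the test, with 304, 326, 312 and 335 CPM and 345 and 549 CPM (-0.48 ± 0.31, adjusted p = 0.523). Both metals had DDIT3 above the 0 to 9.16 CPM of water.

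Cytosolic aminoacyl-tRNA synthetases, which charge tRNAs and include known ATF4 targets, followed the same direction: 9 of 17 tested were called higher in arsenic and 1 in cadmium (median 0.61). EPRS1, the glutamyl-prolyl enzyme, stood at 570.4, 627, 662 and 711 CPM with arsenic, 201 and 126 CPM with cadmium and 317 to 447 CPM in water (1.96 ± 0.17, adjusted p = 7.97e-17). The arsenic libraries were above the controls and the cadmium libraries below them. WARS1, the tryptophanyl enzyme, gave 919, 866, 938 and 1028 CPM and 242 and 358 CPM (1.65 ± 0.15, adjusted p = 1.25e-15), and GARS1, the glycyl enzyme, 1159.7, 1154, 1312 and 1288 CPM and 759.6 and 402 CPM (1.07 ± 0.16). KARS1, the lysyl enzyme, was the 1 higher in cadmium, with 99.9 to 119 CPM and 153 and 209 CPM (-0.75 ± 0.18), a call lost without cadmium replicate 2 (adjusted p = 0.399). Without cadmium replicate 1, 6 synthetases were called higher in arsenic, and without replicate 2, 8.

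Targets of p53, the DNA damage factor, were called higher in arsenic for 11 of 24 tested and higher in cadmium for 0 (median 1.79, 1.64 with bounds). With the left-out cadmium library included, 10 were called higher in arsenic and 2 in cadmium, with a median of 0.87. DESeq2 called 15 and 2. Several p53 targets, GDF15 among them, are also induced through ATF4. GDF15, a secreted stress cytokine (chromosome 19, 18374731 to 18389176), stood at 956, 1046, 1360.2 and 1027 CPM with arsenic and 35.2 and 74.2 CPM with cadmium, against 2.82 to 21.7 CPM in water (4.35 ± 0.50, 20.4-fold, adjusted p = 3.13e-11). TNFRSF10B, the death receptor DR5, gave 517, 578, 800.0 and 804 CPM and 79.1 and 95.2 CPM (2.96 ± 0.21, adjusted p = 3.34e-21). TNFRSF10B lay above the 153 to 225 CPM of the controls with arsenic and below it with cadmium. CDKN1A, the cell cycle inhibitor p21, was above the 165 to 229.8 CPM of water with both metals, at 941, 819, 1097 and 1037 CPM with arsenic and 342 and 454 CPM with cadmium (1.30 ± 0.21, adjusted p = 9.56e-07). PHLDA3, an inhibitor of AKT, differed by 2.52 ± 0.40, and MDM2, the ubiquitin ligase of p53, by 1.26 ± 0.39 (adjusted p = 0.0241).

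Without cadmium replicate 1, 7 p53 targets were called and without replicate 2, 6. MDM2 lost its call in both cases (adjusted p = 0.662 and 0.0747).

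Of 16 BCL2 family genes, which gate mitochondrial apoptosis, 2 were called higher in arsenic and 1, BAD, in cadmium. PMAIP1, the BH3-only protein NOXA, gave 289, 285, 237 and 246 CPM with arsenic and 36.4 and 88.2 CPM with cadmium (2.11 ± 0.40, adjusted p = 4.85e-05), and BAK1, a pore-forming member, 109.8, 88.2, 107 and 101 CPM and 12.6 and 33.6 CPM (2.17 ± 0.44, adjusted p = 0.000202). Both calls were lost without cadmium replicate 1 (adjusted p = 0.0578 and 0.115).

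**Figure D3:**
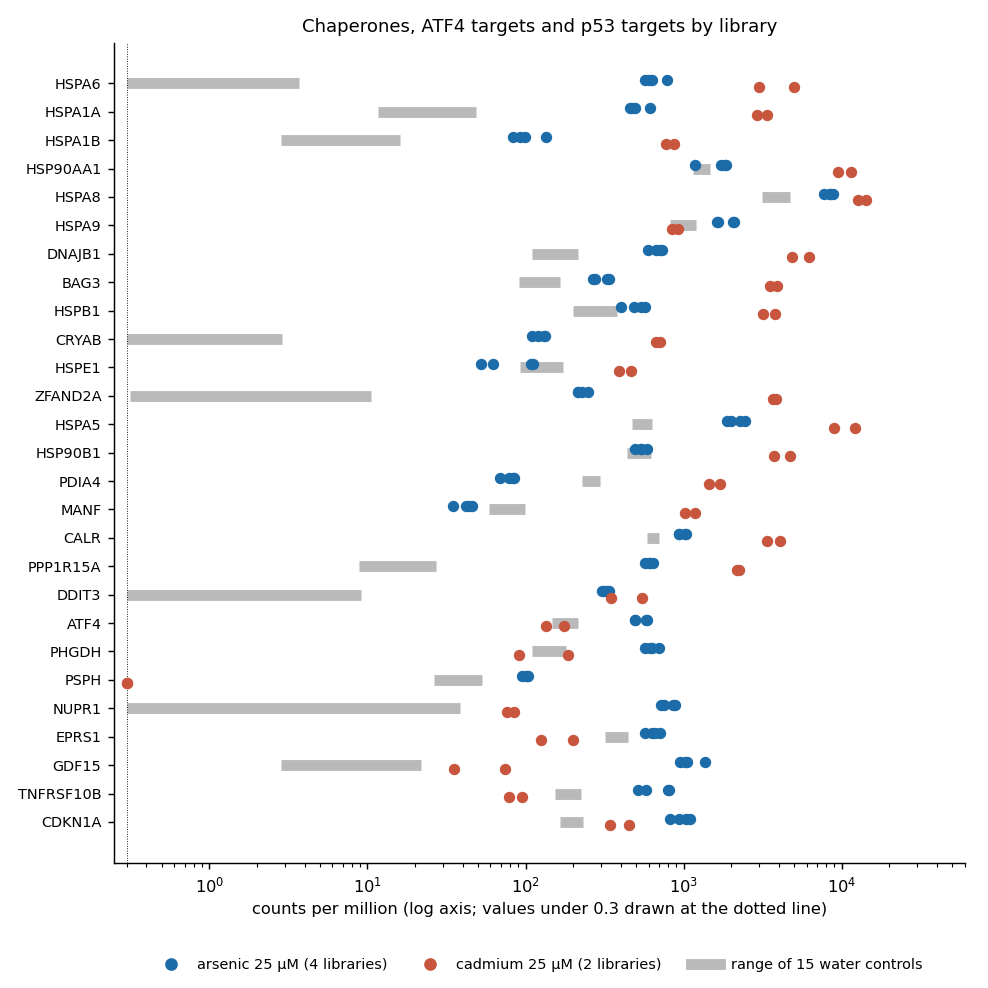
CPM in each library (x axis, log scale; values under 0.3 drawn at the dotted line) for 27 genes (y axis): 1 point per library for arsenic 25 µM (4) and cadmium 25 µM (2), and a bar for the range of the 15 water controls. Chaperones from HSPA6 to CALR lie further right with cadmium, except HSPA9, and the genes from ATF4 to CDKN1A lie further right with arsenic.

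Of 9 metallothioneins tested, 3 were called higher in cadmium (MT1B, MT1F and MT1L) and 0 in arsenic (median -1.27). MT2A, MT1X and MT1E had their 2 highest values with cadmium and did not pass the test over all 6 libraries. The whole list, untested members included, summed to 8357 to 15449 CPM with arsenic, 20761 to 24559 CPM with cadmium and 3398 to 12058 CPM in water. In MT2A, MT1X, MT1E, MT1F and MT1L, arsenic replicates 3 and 4 had lower values than 1 and 2. Within replicates 1 and 2 alone, 6 of 7 members tested were called higher in cadmium, and without cadmium replicate 1, 1 was.

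MT2A, the most widely expressed metallothionein (chromosome 16, 56608199 to 56609497), stood at 12309, 11789, 7447 and 6661 CPM with arsenic and 14904 and 17881 CPM with cadmium (-0.78 ± 0.38, adjusted p = 0.252). The groups did not overlap, and within replicates 1 and 2 the difference was -0.43 ± 0.11 (adjusted p = 0.00414). MT1X gave 523, 491, 343 and 274 CPM and 1076 and 941 CPM against 10.7 to 103 CPM in water (-1.31 ± 0.69, adjusted p = 0.321), and -0.98 ± 0.17 within replicates 1 and 2 (adjusted p = 1.63e-05). MT1E gave 2491, 2330.1, 1170.4 and 1371 CPM and 3881 and 4987 CPM (adjusted p = 0.0893), and -0.86 ± 0.13 within replicates 1 and 2 (adjusted p = 4.97e-07). Cadmium was above arsenic in all libraries of these 3 genes. MT1F passed in both comparisons, at 81.8, 71.2, 40.8 and 31.6 CPM and 349 and 239 CPM (-2.40 ± 0.57, adjusted p = 0.00182), though not without cadmium replicate 1 (adjusted p = 0.167). MT1L, annotated as a transcribed pseudogene, had the widest difference, with 41, 31.6, 16.8 and 14.8 CPM and 519 and 509.7 CPM (-4.32 ± 0.59, adjusted p = 1.79e-08). The genes of this cluster are near-identical copies, so how reads were shared among them is uncertain. MT1G was at 3.32, 6.46, 6.24 and 2.31 CPM with arsenic and 0 with cadmium and did not pass (adjusted p = 0.686).

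The promoters of MT2A and MT1X are shown with the core of the metal response element, which MTF1 recognises, in capitals. Each is the 250 bases before the RefSeq start (GRCh38.p14, plus strand), MT2A at chr16:56608334-56608583 and MT1X at chr16:56682220-56682469, with matches to TGCGCNC or TGCACNC on either strand.
MT2A: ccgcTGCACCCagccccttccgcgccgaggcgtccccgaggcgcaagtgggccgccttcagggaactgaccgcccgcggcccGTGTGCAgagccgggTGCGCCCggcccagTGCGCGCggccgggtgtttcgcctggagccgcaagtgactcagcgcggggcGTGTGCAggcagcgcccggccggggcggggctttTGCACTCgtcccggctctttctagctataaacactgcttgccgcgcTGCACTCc
MT1X: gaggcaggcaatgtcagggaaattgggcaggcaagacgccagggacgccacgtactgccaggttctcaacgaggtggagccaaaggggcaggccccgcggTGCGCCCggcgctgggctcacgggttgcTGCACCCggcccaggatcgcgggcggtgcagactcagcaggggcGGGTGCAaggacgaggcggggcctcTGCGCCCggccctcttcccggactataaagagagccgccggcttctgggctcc
The core matched 7 times before MT2A and 4 times before MT1X. All 5 metallothionein promoters in the table held it, against 24.7% of all promoters of this length.

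Of 27 zinc and copper transport genes 5 were called higher in arsenic and 2 in cadmium (median 0.37). Upper-quartile scaling gave 3 in each direction, and thinning without mitochondrially coded genes 2 and 1. The calls not described next were SLC30A7, a Golgi zinc transporter, and SLC31A1, the copper importer, higher in arsenic, and ATOX1, a copper chaperone, higher in cadmium. SLC30A1, the zinc exporter of the plasma membrane and an MTF1 target, was above the 24.2 to 50.4 CPM of water with both metals, at 209.8, 179.7, 194 and 197 CPM with arsenic and 75.3 and 86.8 CPM with cadmium (1.27 ± 0.39, adjusted p = 0.0209). SLC39A4, a zinc importer, went the other way, at 12.3, 21.3, 13.8 and 10.3 CPM and 109 and 77 CPM (-2.73 ± 0.43, adjusted p = 8.96e-07). Arsenic libraries were below the 33 to 89.9 CPM of the controls and cadmium libraries within or above it. SLC39A3, another importer, gave 58.1, 42.4, 49.4 and 46.6 CPM and 6.28 and 0 CPM (adjusted p = 0.000155), and SLC30A6, a Golgi zinc transporter, 24.1, 30.3, 35.5 and 32.9 CPM and 1.26 and 0 CPM (adjusted p = 0.0214). Calls higher in arsenic numbered 2 without cadmium replicate 1 and 1 without replicate 2. SLC30A1 (adjusted p = 0.306 and 0.178) and SLC30A6 (0.222 and 0.285, adjusted) lost the call with replicate 1 or 2 left out, and SLC39A3 without replicate 2 (adjusted p = 0.0509).

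Heme breakdown and iron storage genes were called in both directions. HMOX1, the inducible heme oxygenase and the best known readout of arsenite and cadmium (chromosome 22, 35380361 to 35394214), was higher in cadmium, while the biliverdin reductase BLVRB and ferritin light chain were higher in arsenic. Of 15 genes tested, 5 were called higher in arsenic and 2 in cadmium (median 0.65), and 3 and 2 with upper-quartile scaling or with thinning without mitochondrially coded genes. FECH, which inserts iron into heme, and NCOA4, the ferritin autophagy receptor, were higher in arsenic, and HMOX2, the constitutive heme oxygenase, higher in cadmium. HMOX1 stood at 1743, 1580.0, 1950.3 and 1746 CPM with arsenic, 3794 and 4127 CPM with cadmium and 1.41 to 12.4 CPM in water (-1.17 ± 0.31, adjusted p = 0.00604). BLVRB gave 339.7, 361, 273 and 276 CPM and 74.1 and 127 CPM (1.65 ± 0.43, adjusted p = 0.00479). FTL, ferritin light chain, gave 20094, 19801, 16607 and 18719.8 CPM and 11692 and 12284 CPM, both over the 922 to 1733 CPM of water (0.65 ± 0.20, adjusted p = 0.021). The heavy chain FTH1 did not pass over all 6 libraries, with 13402 to 15693 CPM and 9538 and 8969 CPM (0.64 ± 0.34, adjusted p = 0.339). Its groups did not overlap, and it passed within replicates 1 and 2 (0.74 ± 0.10, adjusted p = 5.34e-08). It was called under 5 of the 20 alternatives. SLC48A1, a heme transporter, differed by 1.92 ± 0.43 (adjusted p = 0.000966). Without cadmium replicate 1 the calls of BLVRB and FTL were lost (adjusted p = 0.251 and 0.222), and without replicate 2 those of HMOX1, FTL and SLC48A1 (adjusted p = 0.0978, 0.154 and 0.157). Only 1 heme and iron gene was then called higher in arsenic without replicate 2.

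Genes of glutathione synthesis and NADPH supply were called higher in arsenic for 4 of 16 and higher in cadmium for 2 (median 0.47), with 3 each under upper-quartile scaling and 7 and 3 by DESeq2. The NADPH-producing enzymes ME1 and IDH1 were among the first. SLC7A11, the cystine importer and a shared NRF2 and ATF4 target, stood at 439, 436, 618 and 493 CPM with arsenic, 80.4 and 40.6 CPM with cadmium and 13.3 to 61.9 CPM in water (3.02 ± 0.65, 8.09-fold, adjusted p = 0.000426). Cadmium replicate 2 lay within the control range. ABCC2, which exports glutathione conjugates, was at 41, 43.2, 31.2 and 65.6 CPM with arsenic and 0 in both cadmium libraries, at least 24-fold higher in arsenic (adjusted p = 0.00573). GCLM, the regulatory subunit of the first glutathione enzyme, overlapped between the metals at 509.9, 516, 623 and 577 CPM and 364 and 552 CPM (adjusted p = 0.783), all above the 58.5 to 123 CPM of water. TKT, a transketolase of the pentose phosphate pathway, was higher in cadmium (-0.60 ± 0.13, adjusted p = 0.000261). Without cadmium replicate 2, 0 of the 16 were called higher in arsenic. SLC7A11 then had an adjusted p of 0.0524 and ABCC2 one of 0.128, and without replicate 1 ABCC2 had an adjusted p of 0.149.

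Among 20 thioredoxin, peroxiredoxin and glutathione peroxidase genes, 1 was called higher in arsenic and 4 in cadmium (median -0.09), and 0 and 6 with upper-quartile scaling. The first was TXNRD1, the cytosolic thioredoxin reductase, with 673, 671, 886 and 794 CPM and 428 and 416 CPM (0.84 ± 0.28, adjusted p = 0.0418). GPX1, a selenium-dependent peroxidase, gave 143, 135, 123 and 109 CPM with arsenic, below the 263 to 539 CPM of water, and 353 and 454 CPM with cadmium (-1.66 ± 0.26, adjusted p = 8.22e-07). PRDX1, a peroxiredoxin, differed by -0.63 ± 0.13, and its relatives PRDX3 of the mitochondria and PRDX4 of the endoplasmic reticulum were also called higher in cadmium. SRXN1, which repairs peroxiredoxins, did not pass, at 45.7, 35.2, 35.1 and 36.9 CPM and 11.3 and 0 CPM (adjusted p = 0.15). Without cadmium replicate 2 the list had 2 calls higher in cadmium, PRDX1 lost its call (adjusted p = 0.0856), and TXNRD1 lost its call with either library left out (adjusted p = 0.274 and 0.324).

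Aldo-keto reductases and quinone reductases, another NRF2 group, were called higher in arsenic for 2 of 15 and higher in cadmium for 3 (median -0.11). Upper-quartile scaling left 0 higher in arsenic, and DESeq2 called 5. NQO1, the quinone reductase, was indistinguishable by the test, at 1504, 1342, 1389 and 1665 CPM and 1563 and 1631 CPM (-0.11 ± 0.14, adjusted p = 0.972), all above the 559 to 698 CPM of water. AKR1C2, a steroid-reducing enzyme whose reads can be shared with its close relatives, gave 359, 315, 147 and 221 CPM and 863 and 668 CPM (-1.56 ± 0.52, adjusted p = 0.0454). AKR1A1, an aldehyde reductase, gave 103 to 127 CPM and 43.9 and 49 CPM (1.32 ± 0.35), and OSGIN1, an NRF2-responsive growth inhibitor, 84.9, 81.9, 122 and 85.7 CPM and 172 and 356 CPM (-1.48 ± 0.36). The epoxide hydrolase EPHX1 was higher in arsenic and the carbonyl reductase CBR1 higher in cadmium. AKR1C2 and AKR1A1 lost their calls with either cadmium library left out (adjusted p = 0.434 and 0.157 for AKR1C2, 0.182 and 0.105 for AKR1A1), and OSGIN1 without replicate 2 (adjusted p = 0.641). With either cadmium library left out, 1 member was called higher in cadmium and 0 in arsenic.

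Of 37 proteasome and ubiquitin supply genes 5 were called in each direction (median -0.12). Upper-quartile scaling gave 2 higher in arsenic and 11 higher in cadmium (median -0.39), and thinning without mitochondrially coded genes 2 and 6. ZFAND2A, an arsenite-inducible zinc finger protein that binds the proteasome (chromosome 7, 1152071 to 1160759, minus strand), had the widest difference. It stood at 216, 248, 214 and 228 CPM with arsenic, 3663 and 3862 CPM with cadmium and 0.315 to 10.5 CPM in water (-4.05 ± 0.25, 16.6-fold, adjusted p = 3.8e-25). PSMA3, PSMC4 and PSMD4 were also called higher in cadmium. Subunits PSMC1 (1.24 ± 0.29) and PSMD8 (0.55 ± 0.15) were higher in arsenic, as were PSMD5, PSMD6 and NFE2L1, the factor that drives proteasome genes. PSMC1 and PSMD8 had adjusted p of 0.0743 and 0.0717 without cadmium replicate 1 and 0.0856 and 0.305 without replicate 2. Calls higher in cadmium numbered 2 without cadmium replicate 2. Those higher in arsenic numbered 1 without replicate 1 and 0 without replicate 2.

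Autophagy genes were called in 1 direction, 5 of 17 higher in arsenic and 0 higher in cadmium (median 0.83). The share called, 29.4%, was near that of commonly expressed genes (1437 of 5139 in either direction). The median was near the 0.81 of all genes tested and above the 0.07 of commonly expressed genes. MAP1LC3B, the LC3B protein of the autophagosome membrane, stood at 1452, 1613, 1684 and 1657 CPM with arsenic, 732 and 574 CPM with cadmium and 77.9 to 136 CPM in water (1.29 ± 0.17, adjusted p = 1.76e-09). SQSTM1, the p62 cargo receptor, gave 4578, 4347, 4655 and 5169 CPM and 2589 and 2936 CPM (0.76 ± 0.15, adjusted p = 6.1e-05). GABARAPL1, of the LC3 family, differed by 1.63 ± 0.41 (adjusted p = 0.00309), and the cargo receptors NBR1 and OPTN were the other calls. Both metals had these 3 genes above the controls, with arsenic above cadmium in every library. Without cadmium replicate 1, 3 members were called and without replicate 2, 4. GABARAPL1 was past the threshold in neither (adjusted p = 0.154 and 0.0545).

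Immediate early genes, which answer growth factor and stress kinases within minutes, were called higher in arsenic for 5 of 19, ARC and IER3 among them, and higher in cadmium for 2 (median 0.44, -0.11 with bounds). Upper-quartile scaling and the replicate block each gave 4 and 5, and thinning without mitochondrially coded genes 4 and 2 with a median of -0.52. FOS stood at 276, 283, 183 and 208 CPM with arsenic and 15.1 and 0 CPM with cadmium (adjusted p = 0.0138), and JUNB at 286, 270.3, 318 and 294 CPM and 56.5 and 18.2 CPM (2.93 ± 0.50, adjusted p = 6.68e-06). ATF3, a repressor of the same leucine zipper class, was at 331, 357, 336 and 348 CPM and 102 and 174 CPM (1.33 ± 0.34, adjusted p = 0.0043). EGR1 and FOSB went the other way. EGR1, a zinc finger factor, gave 799, 895, 886 and 909 CPM and 2081 and 2393 CPM against 20.3 to 53.8 CPM in water (-1.36 ± 0.22, adjusted p = 1.17e-06), and FOSB 43.3, 42.7, 43.1 and 46 CPM and 195 and 101 CPM (-1.77 ± 0.40, adjusted p = 0.000816). Calls higher in arsenic numbered 2 without cadmium replicate 1 and 3 without replicate 2. FOS lost its call with either library left out (adjusted p = 0.132 and 0.243), and ATF3 and FOSB without replicate 1 (adjusted p = 0.294 and 0.451).

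Genes of EGFR ligands and ERK feedback were called higher in arsenic for 6 of 19 and higher in cadmium for 1 (median 1.51, 1.33 with bounds). EGFR itself and the feedback inhibitors SPRY4 and SPRED2 were among those higher in arsenic. With the left-out cadmium library included, 6 were called higher in arsenic and 1 in cadmium, and the median fell to 0.31. ETV5, an ERK-driven ETS factor, stood at 186, 211, 228 and 202 CPM with arsenic, 36.4 and 28 CPM with cadmium and 45.7 to 74.4 CPM in water (2.67 ± 0.35, adjusted p = 3.35e-09). DUSP6, the ERK phosphatase, was at 32.8, 23.9, 29.4 and 30.6 CPM with arsenic, below the 39.1 to 54.6 CPM of water, and 0 in both cadmium libraries, at least 14.8-fold higher in arsenic (adjusted p = 0.00429). DUSP1, a broader kinase phosphatase, gave 506 to 696 CPM and 286 and 305 CPM (1.0 ± 0.24). AREG, an EGFR ligand, was the 1 higher in cadmium, at 183, 194, 209 and 171 CPM and 417 and 482 CPM (-1.25 ± 0.25, adjusted p = 0.000115). With either cadmium library left out 1 member was called higher in arsenic. DUSP6 and DUSP1 then had adjusted p of 0.14 and 0.0902 without replicate 1, and of 0.118 and 0.0505 without replicate 2.

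Sterol and fatty acid synthesis genes, driven by SREBP factors, were called higher in cadmium for 14 of 29 and higher in arsenic for 0 (median -0.79). FDPS, FDFT1, DHCR7 and MSMO1 of the cholesterol pathway and FASN, ACACA and ACLY of fatty acid synthesis were among the 14. HMGCS1, which makes the precursor of mevalonate, stood at 125, 102, 113 and 121 CPM with arsenic, 918 and 748 CPM with cadmium and 129.7 to 227 CPM in water (-2.85 ± 0.26, 7.22-fold, adjusted p = 1.03e-15). HSD17B7, a cholesterol pathway reductase, gave 20.3 to 24.4 CPM and 158 and 106 CPM (-2.54 ± 0.36). INSIG1, the sterol-sensing retention protein, gave 61.1 to 108 CPM and 451 and 181 CPM (-2.04 ± 0.30). For these 3 genes cadmium was above the control range and no arsenic library was. Calls numbered 9 without cadmium replicate 1, where INSIG1 had an adjusted p of 0.154, and 11 without replicate 2.

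Keratins, the filaments of epithelial cells, were called higher in cadmium for 7 of 16 and higher in arsenic for 0 (median -1.22, -1.61 with bounds). Their summed level was 6119 to 9034 CPM with arsenic, 24136 to 24434 CPM with cadmium and 15686 to 22319 CPM in water. KRT5, the basal keratin, stood at 95.5, 101, 145 and 123 CPM with arsenic, 704 and 497 CPM with cadmium and 1047 to 1511 CPM in water (-2.38 ± 0.21, adjusted p = 1.54e-16). Its partner KRT14 gave 20.9, 12.1, 34.9 and 31.8 CPM and 139 and 147 CPM against 68.8 to 154 CPM (-2.51 ± 0.57, adjusted p = 0.00101), a call lost without cadmium replicate 2 (adjusted p = 0.0538). KRT6A, whose reads can be shared with near-identical copies, differed by -1.83 ± 0.14, the simple-epithelium keratin KRT7 by -1.50 ± 0.18 and KRT81, named for hair, by -2.05 ± 0.21. Arsenic libraries of KRT5, KRT14, KRT6A, KRT7 and KRT81 were all below the control range.

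S100 proteins, small calcium binders, were called higher in cadmium for 6 of 17 and higher in arsenic for 0 (median -1.68). Cadmium had replicates 1 and 2 only. The median was nearer to none with the replicate block (-0.94) and within replicates 1 and 2 (-1.21), where 7 were called higher in cadmium in each. S100A2, typical of basal epithelium, gave 594, 532, 436 and 374 CPM with arsenic, 2108 and 2631 CPM with cadmium and 1109 to 1819 CPM in water (-2.29 ± 0.17, adjusted p = 9.91e-21). Arsenic was below and cadmium above the controls. S100A6 differed by -1.99 ± 0.41 and S100A16 by -1.75 ± 0.12. Of 12 squamous differentiation genes, 1 was called in each direction, SPRR2D, a cornified envelope protein, higher in arsenic and KRT10, a suprabasal keratin, higher in cadmium (-1.52 ± 0.37, adjusted p = 0.00221, and 0.53 without cadmium replicate 2).

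Matrix and integrin genes were called higher in cadmium for 7 of 24 and higher in arsenic for 2 (median -0.46). The basement membrane genes COL4A2, COL17A1, LAMA5 and LAMB3 and the laminin receptor subunits ITGA3 and ITGA6 were among the 7, and ITGB5 was with ITGA5 among the 2. THBS1, an adhesive matrix glycoprotein, stood at 157, 130.1, 143 and 85.5 CPM with arsenic and 696 and 661 CPM with cadmium (-2.40 ± 0.59, adjusted p = 0.00263). ITGA5, the fibronectin receptor subunit, went the other way at 436, 436, 464 and 463 CPM and 56.5 and 99.4 CPM, with 141 to 224 CPM in water (2.55 ± 0.25, adjusted p = 5.95e-14). With either cadmium library left out 3 members were called higher in cadmium, and THBS1 had an adjusted p of 0.0642 without replicate 1.

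Inflammatory genes were called higher in cadmium for 3 of 24 and higher in arsenic for 1 (median 0.46, 0.31 with bounds), and the replicate block gave 3 and 5. IL1B, a cytokine of the inflammasome pathway, stood at 153, 135, 30.7 and 54.3 CPM with arsenic and 455 and 1124 CPM with cadmium (-3.07 ± 0.43, adjusted p = 2.43e-08). Arsenic replicates 3 and 4 were lower than 1 and 2, and cadmium replicate 2 was the highest. CXCL8, a neutrophil chemokine, gave 653, 700.2, 294 and 531 CPM and 1104 and 1358 CPM (-1.17 ± 0.39, adjusted p = 0.04), and IL11, an IL6 family cytokine, 14.4, 7.54, 14.2 and 11.5 CPM and 67.8 and 74.2 CPM (-2.58 ± 0.62, adjusted p = 0.00206). ICAM1, an adhesion molecule, was the 1 higher in arsenic, at 101, 109, 67.9 and 88.2 CPM and 16.3 and 12.6 CPM (2.65 ± 0.86, adjusted p = 0.0345). CXCL8, IL11 and ICAM1 passed the test in neither comparison with 1 cadmium library (adjusted p = 0.13, 0.0643 and 0.287 without replicate 1, 0.402, 0.0861 and 0.339 without replicate 2). Of 25 interferon-stimulated genes 1 was called, OAS3, an RNA-sensing synthetase, at 8.47, 6.82, 11.1 and 4.15 CPM and 26.4 and 98 CPM (-3.05 ± 0.51, adjusted p = 3.83e-06, and 0.411 without cadmium replicate 2).

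Mitochondrially coded messages were higher in cadmium for all 13 members, with differences from -3.90 to -2.11 (median -3.57). MT-ND1, a complex I subunit, stood at 1964, 2095, 2020.4 and 1894 CPM with arsenic, 18973 and 28267 CPM with cadmium and 3572 to 5806 CPM in water (-3.57 ± 0.17, 11.8-fold, adjusted p = 1.29e-33). MT-ND4 differed by -3.37 ± 0.18 and MT-CO1, a complex IV subunit, by -2.11 ± 0.16. All 4 arsenic libraries of MT-ND1, MT-ND4 and MT-CO1 were below the control range and both cadmium libraries above it. With the left-out cadmium library included, all 13 were still called higher in cadmium (median -3.14). In that library, mitochondrially coded genes as a whole, a wider set than these 13, took 9.99% of reads.

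Of 39 nuclear genes of the same respiratory complexes, 10 were called higher in cadmium and 1 in arsenic (median -0.44). The count higher in cadmium was 15 with upper-quartile scaling and 6 with the replicate block. ATP5PO, an ATP synthase stalk subunit, gave 29.3, 28.1, 22.2 and 24.9 CPM and 61.5 and 113 CPM (-1.72 ± 0.49, adjusted p = 0.0135) and NDUFS3, of complex I, differed by -1.69 ± 0.29. NDUFS1, also of complex I, was the 1 higher in arsenic (0.90 ± 0.26, adjusted p = 0.0158). Calls higher in cadmium numbered 2 without cadmium replicate 1 and 5 without replicate 2. NDUFS1 lost its call in both cases (adjusted p = 0.0994 and 0.412), and ATP5PO and NDUFS3 without replicate 2 (adjusted p = 0.658 and 0.0953).

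Ribosomal protein genes were called higher in cadmium for 54 of 75 and higher in arsenic for 0 (median -1.03). Of the 75 genes, 72 did not overlap between the groups, against 32.2% of all genes tested. Those tested include 11907 with no read in either cadmium library, and the share among commonly expressed genes was not counted. The differences of the 75 ran from -1.82 to -0.23. The median was -0.76 with the replicate block and -0.81 within replicates 1 and 2, with 65 and 67 called higher in cadmium. Their summed level was 56936 to 73989 CPM with arsenic, 120199 to 127678 CPM with cadmium and 58852 to 112542 CPM in water. RPL35, of the large subunit, had the widest difference, at 385, 414, 309 and 296 CPM and 1311 and 1158 CPM (-1.82 ± 0.30, adjusted p = 3.55e-06). RPLP1, of the ribosomal stalk, differed by -1.20 ± 0.29 and RPS29, of the small subunit, by -1.54 ± 0.47. Without cadmium replicate 1, 33 were called and without replicate 2, 23, and RPS29 was called in neither (adjusted p = 0.215 and 0.165), nor RPLP1 without replicate 2 (adjusted p = 0.114). With the mitochondrially coded genes removed and the 6 libraries thinned to 773447 reads, 52 of the 75 were called higher in cadmium.

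Glycolysis and hypoxia genes were called in both directions, 5 of 31 higher in arsenic and 6 higher in cadmium (median 0.04). Upper-quartile scaling gave 2 and 10 (median -0.23), thinning without mitochondrially coded genes 1 and 5 (median -0.20), and DESeq2 10 and 7. LDHA, which makes lactate, gave 1282, 1106, 1254 and 1102 CPM and 2595 and 2182 CPM, all below the 3742 to 5143 CPM of water (-1.01 ± 0.18, adjusted p = 2.26e-05), and PKM, pyruvate kinase, differed by -0.49 ± 0.08. Among the genes higher in arsenic, the secreted factor ADM, adrenomedullin, gave 179, 167, 97.3 and 126 CPM and 0 and 11.2 CPM (adjusted p = 4.2e-06), and VEGFA, the angiogenic growth factor, 31.3, 30.2, 19.6 and 49.8 CPM and 0 in both cadmium libraries, at least 17.5-fold higher in arsenic (adjusted p = 0.0195). VEGFA lost its call with either cadmium library left out (adjusted p = 0.259 and 0.228). Calls higher in arsenic numbered 2 without replicate 1 and 1 without replicate 2, and those higher in cadmium 3 and 6.

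Of 28 mitosis genes 3 were called in each direction (median 0.38), and of 40 DNA replication genes 3 were higher in cadmium and 0 in arsenic (median -0.43). With the left-out cadmium library included, 10 genes of each list were called higher in cadmium and 0 higher in arsenic (medians -0.45 and -0.85). DESeq2 called 9 mitosis genes higher in arsenic and 6 higher in cadmium, and 1 and 14 replication genes. The replicate block, and a term for replicates 1 and 2 against 3 and 4, each gave 0 and 3 mitosis genes and 0 and 8 replication genes, and upper-quartile scaling 0 and 3, and 0 and 6. CCNB2, a mitotic cyclin, was higher in arsenic, and the mitotic genes AURKB, KIF20A and UBE2C and the thymidine kinase TK1 were higher in cadmium. Both lists were below water with both metals. Mitosis genes summed to 1707 to 2131 CPM with arsenic, 1473 to 2054 CPM with cadmium and 3445 to 4738 CPM in water, and replication genes to 1027 to 1233, 1649 to 1683 and 2495 to 3829 CPM. MKI67, the proliferation marker, overlapped between the metals at 92.4, 66.8, 76.7 and 60.1 CPM and 102 and 64.4 CPM (adjusted p = 1), under the 178 to 245 CPM of water. The kinetochore gene NDC80 (26.7 to 42.2 CPM and 0 and 9.80 CPM, adjusted p = 0.0487) and the mitotic kinase AURKA (1.20 ± 0.39, adjusted p = 0.0343) were higher in arsenic, and the replication genes LIG1, a DNA ligase (-1.54 ± 0.48, adjusted p = 0.0248), and MCM7, a helicase subunit (-1.50 ± 0.37, adjusted p = 0.0029), higher in cadmium. None of these 4 was called once a cadmium library was left out, with adjusted p of 0.705, 0.104, 0.13 and 0.116 without replicate 1 and of 0.107, 0.63, 0.511 and 0.078 without replicate 2.

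Of 15 small nucleolar RNA hosts 1 was called, SNHG29 (-0.84 ± 0.20, adjusted p = 0.00268), and of 6 nuclear-retained RNAs 1, NORAD, a long noncoding RNA that binds PUMILIO proteins (-0.78 ± 0.24, adjusted p = 0.0237), both higher in cadmium. Neither was called once a cadmium library was left out (adjusted p = 0.0995 and 0.0962 without replicate 1, 0.0533 and 0.493 without replicate 2). Of 5 osmotic stress transporters 0 were called by edgeR (DESeq2 called 3 higher in arsenic).

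**Figure D4:**
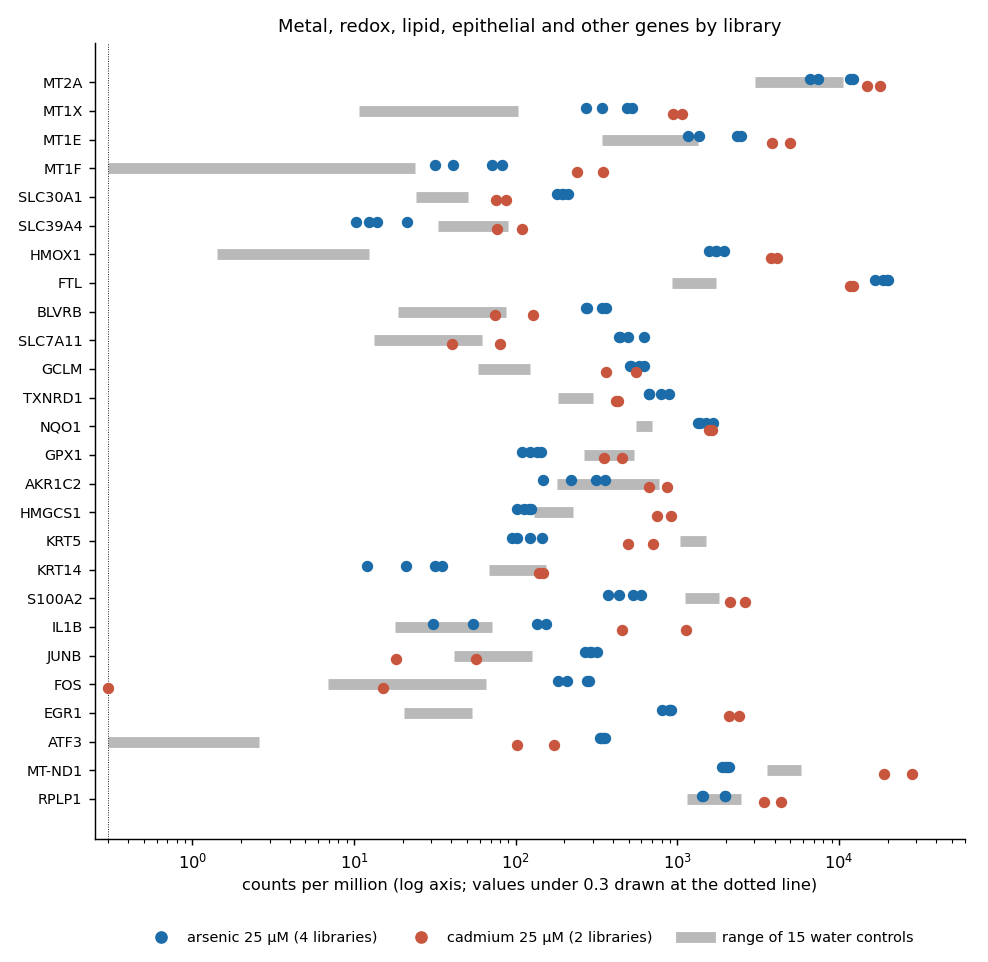
CPM in each library (x axis, log scale; values under 0.3 drawn at the dotted line) for 26 genes of metal handling, redox, lipid synthesis, epithelial structure, signalling, mitochondria and ribosomes (y axis), drawn as in the plot of chaperones. Metallothioneins, HMOX1, HMGCS1, KRT5, S100A2, IL1B, MT-ND1 and RPLP1 lie further right with cadmium, and SLC30A1, FTL, SLC7A11, JUNB, FOS and ATF3 further right with arsenic.

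The widest differences in calls made both over all 6 libraries and within replicates 1 and 2, at a mean log2 CPM of 4 or more and with no overlap, included MANF, PDIA4, ZFAND2A, MT1L and PSPH, described above, and 7 other genes. Higher in arsenic, ARC, an activity-regulated cytoskeletal gene better known from neurons, stood at 765, 808, 595 and 488 CPM with arsenic, 0 in both cadmium libraries and 0 to 0.511 CPM in water, at least 327-fold higher in arsenic (adjusted p = 1.85e-13). PCK2, the mitochondrial PEP carboxykinase, was at 139.5, 112, 163 and 178 CPM and 0 with cadmium (at least 76.1-fold, adjusted p = 7.45e-12). PRSS8, the membrane protease prostasin, was at 119.7, 83.9, 159 and 119 CPM and 0 (at least 60.1-fold, adjusted p = 8.28e-05). ARC, PCK2 and PRSS8 were above the controls in every arsenic library. CKAP2, a spindle protein, was at 83.8, 68.8, 62.8 and 51.5 CPM and 0 (at least 33-fold, adjusted p = 2.21e-05), and RPS6KA2, a kinase downstream of ERK, at 68.9, 30.9, 78.3 and 60.6 CPM and 0 (at least 30.0-fold, adjusted p = 3.39e-05). The arsenic libraries of CKAP2 lay within its control range of 50.4 to 103 CPM, and those of RPS6KA2 overlapped its range of 30.3 to 54.5 CPM.

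Higher in cadmium, MMP28, an epidermal matrix metalloprotease, was at 0.964, 0, 1.04 and 0.638 CPM with arsenic and 20.1 and 25.2 CPM with cadmium, where water held 5.96 to 51.6 CPM (-5.07 ± 1.33, adjusted p = 0.00562, but 0.0879 and 0.158 without cadmium replicates 1 and 2). MTRNR2L8, a nuclear copy of mitochondrial ribosomal RNA, was at 31.6, 23.1, 9.89 and 13.4 CPM and 407 and 286 CPM (-4.16 ± 0.41, adjusted p = 2.94e-14). Reads of its mitochondrial original can be counted to it.

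At 2.5 µM, with 4 libraries of each metal, 185 genes (0.761%) differed, 74 higher in arsenic and 111 higher in cadmium. With a replicate block, which fits a term for each replicate number, 716 differed, and without replicate 1, 3 or 4 the count was 122, 72 or 66. Of the 185, 64 were also called at 25 µM, which is 34.6% of the 2.5 µM calls and 3.08% of the 25 µM calls, 47 in the same direction and 17 in the opposite one. HSPA6, HSPA1A, DNAJB1, BAG3, CRYAB and HMOX1 were already called higher in cadmium there. HSPA6 stood at 0.456, 0.0725, 4.24 and 2.10 CPM with arsenic 2.5 µM and 111, 200.4, 21.6 and 70.3 CPM with cadmium 2.5 µM (-6.37 ± 0.45, adjusted p = 8.25e-23). HMOX1 stood at 17.1, 11.2, 39.2 and 35.1 CPM and 322, 433, 67.4 and 146 CPM (-3.34 ± 0.32, adjusted p = 1.47e-13), and CRYAB differed by -7.48 ± 0.68. Cadmium replicates 3 and 4 at 2.5 µM were the lower pair for HMOX1. MT1X gave 102, 88.6, 52.3 and 20.6 CPM and 516, 492, 101 and 172 CPM (-2.23 ± 0.58, adjusted p = 0.035), with overlapping libraries, and ZFAND2A differed by -2.86 ± 0.29 (adjusted p = 1.82e-12).

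A test of the difference itself, arsenic minus cadmium at 25 µM against the same at 2.5 µM, called 1701 genes (7.0%), 955 without replicate 1 and 799 without replicate 2 of the 4 groups. Of the list members tested there, the 13 mitochondrially coded genes, 13 of 20 endoplasmic reticulum chaperones, 47 of 75 ribosomal proteins, 11 of 17 synthetases and 10 of 22 ATF4 targets were called. HSPA5 differed by -0.68 ± 0.14 at 2.5 µM (adjusted p = 0.00184) and by more at 25 µM (adjusted p = 8.6e-09 for the change). For PHGDH (-0.09 ± 0.13, adjusted p = 0.886) and GDF15 (-0.22 ± 0.35, adjusted p = 0.922) the metals did not separate at 2.5 µM (adjusted p = 1.77e-11 and 2.9e-08 for the change). HSPA6 and HMOX1 had the larger difference at the lower dose, where 3 of the 4 arsenic libraries of HSPA6 lay within the control range and 3 of the 4 of HMOX1 above it (adjusted p = 2.76e-06 and 0.000457 for the change). The 2 comparisons share no library.

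SLC30A1, ATF3, LAMB3 and ARC were called in opposite directions at the 2 doses. At 2.5 µM SLC30A1 was at 29.1, 31.9, 24.1 and 43.9 CPM with arsenic and 69.3, 63.1, 61.8 and 69.2 CPM with cadmium, higher in cadmium (-1.02 ± 0.21, adjusted p = 0.00269), and ATF3 at 0.57, 0.0725, 1.36 and 0.1 CPM and 6.06, 5.33, 0.91 and 2.34 CPM (-2.94 ± 0.78, adjusted p = 0.0395). Both were higher in arsenic at 25 µM, and the change was called for each (adjusted p = 6.55e-05 and 8.08e-05). ARC, too, was higher in cadmium at 2.5 µM (-3.87 ± 0.78, adjusted p = 0.00225). It stood at 0, 0.0725, 2.72 and 0 CPM with arsenic and 1.65, 4.41, 0.91 and 14.8 CPM with cadmium. For ATF3 and ARC the libraries of the metals overlapped at this dose, at low levels. Cadmium replicates 3 and 4 of ATF3 lay within the 0 to 2.59 CPM of water. LAMB3, a laminin chain of the epithelial basement membrane, was higher in arsenic at 2.5 µM, at 717, 678, 760.2 and 1487 CPM against 383, 535, 441 and 489 CPM (0.98 ± 0.21, adjusted p = 0.0034), and higher in cadmium at 25 µM, at 1795, 1727, 1866 and 1933 CPM against 4363 and 5635 CPM (-1.45 ± 0.25, adjusted p = 4.71e-06).

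At 0.25 and 0.025 µM the edgeR test called 0 genes each (0% of those tested), where 997 and 1012 genes had an unadjusted p below 0.05. DESeq2 called 3 at each dose, and the replicate block 55 at 0.25 µM and 10 at 0.025 µM. As a measure of how far a pair of other metals on this plate differed at 25 µM, copper minus lead, with 4 libraries each, had 201 called genes (0.827%), 107 higher in copper and 94 higher in lead, and 631 with the replicate block, against 73 without replicate 1 and 76 without replicate 2.

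**Figure D5:**
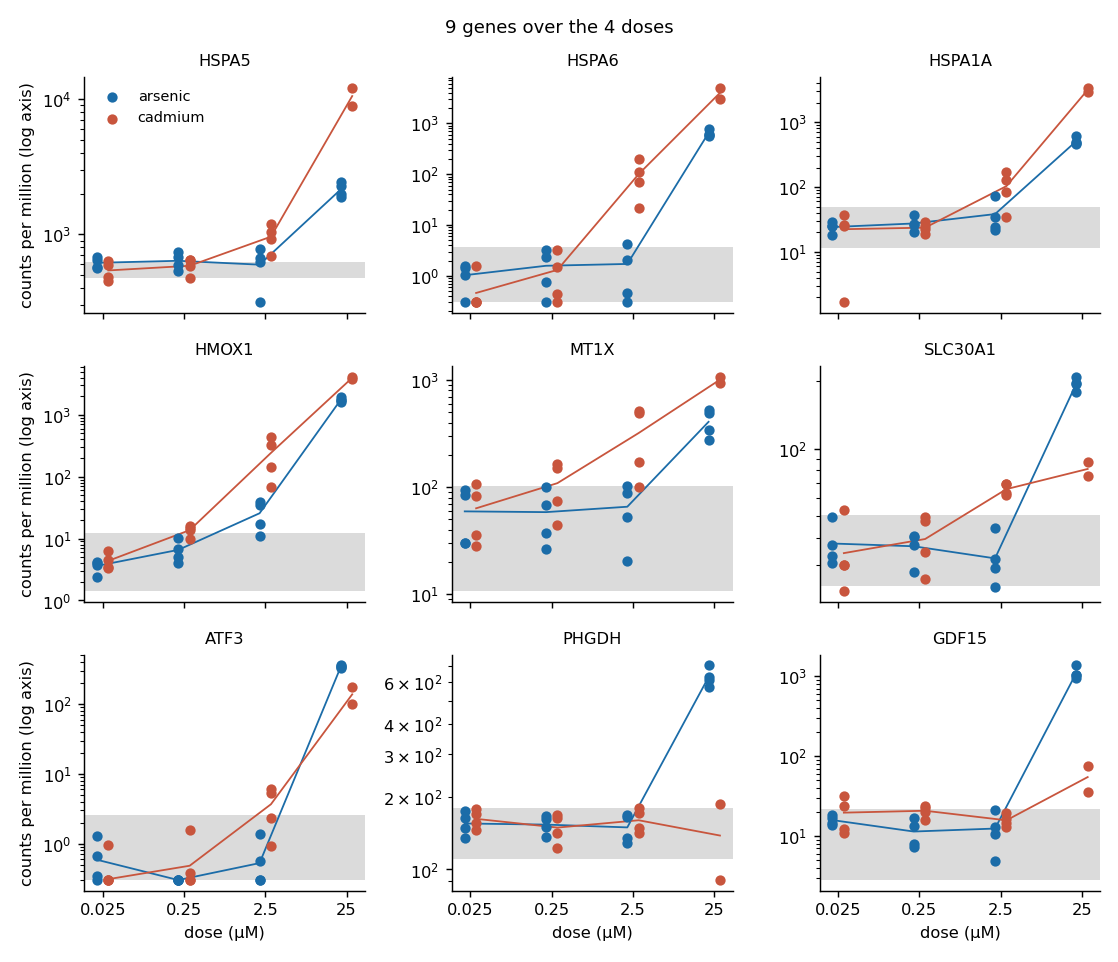
CPM (y axis, log scale; values under 0.3 drawn at 0.3) of 9 genes against the dose of arsenic or cadmium (x axis, µM): 1 point per library, 4 per dose except 2 for cadmium at 25 µM, lines through the means, and a grey band for the range of the 15 water controls. All 4 cadmium libraries of HSPA6 and HMOX1 lie above the band at 2.5 µM, and all 4 arsenic libraries of PHGDH and GDF15 lie above it at 25 µM, as do both cadmium libraries of GDF15.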

How the data were processed

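Whole-number read counts per gene were used as deposited, 1 file per library with 34718 gene symbols each. The submitters' processing notes name STAR, featureCounts, FastQC, MultiQC and GRCh38, without roles or versions. For the annotation, the strand setting and filters, nothing is given in the sources used here. Of the symbols, 92.5% matched GENCODE v29, from which the gene positions were taken.

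The 93 libraries of the plate with its own barcode (20 dosed groups and 15 water controls) were fitted together in R 4.3.3 with edgeR 4.0.16 (TMM scaling, filterByExpr with a minimum count of 10 and a minimum total of 15, quasi-likelihood test), so that all groups share 1 estimate of spread, with Benjamini-Hochberg adjustment over all 24295 genes and a threshold of 0.05. The procedure was also run on simulated counts, drawn for every group from the mean levels of the plate with the same trend of spread. These counts lacked the wider spread and the high mitochondrial share of the cadmium pair. They cannot show how the test behaves with such a pair. Alternatives used DESeq2 1.42.0 and limma 3.58.1. The exact permutation test of 4 against 2 libraries cannot reach the threshold and was not used. Counting error limits the cadmium values most, at 1.43 M and 1.45 M reads.

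The groups and gene lists were chosen with earlier results of these data known. The named genes were the called member with the widest difference in each list (average log2 CPM of at least 3, no overlap), the 6 highest and 6 lowest differences (average log2 CPM of at least 4), and a fixed set of stress genes, 60 in all. The other genes named were chosen after their values were seen. Some genes of the rule and the lists are not reported here.

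Whether replicate numbers pair libraries was checked by correlating deviations from the group means of same-numbered libraries of both metals. These were 0.223 to 0.493 at 2.5 µM, 0.395 to 0.608 at 0.25 µM, 0.385 to 0.549 at 0.025 µM and 0.356 to 0.496 for copper and lead, over 0.1 in every pair, and the blocked counts stand beside those results. Different numbers within replicates 1 and 2, or within 3 and 4, correlated as well. Arsenic 2 with cadmium 1 gave 0.558 at 2.5 µM, against 0.319 for 2 with 2. Arsenic 4 with cadmium 3 gave 0.609 at 0.25 µM, against 0.498 for 4 with 4. In these comparisons replicates 1 and 2 correlated negatively with 3 and 4. The check therefore cannot tell pairing by number from a split between these sets. At 25 µM the metals share 2 numbers and the correlation was -0.005.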

Additional observations from a re-analysis of the deposited data

Results flagged for a closer look

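In 2 genes 1 arsenic library lay apart from the other three by a Dixon test at the 95% level: OSGIN1, at 122 CPM in arsenic replicate 3, and SRXN1, at 45.7 CPM in arsenic replicate 1. Such a gap is reached by chance in about 1 in 20 groups, and 140 groups of 4 were checked.

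The difference between the metals changed between 2.5 and 25 µM for 1701 genes by the test of that change. Among the genes named, 4 were called in opposite directions at the 2 doses. The change, as the log2 difference at 25 µM minus that at 2.5 µM, was 4.27 for ATF3, 2.29 for SLC30A1 and -2.43 for LAMB3. At 2.5 µM the libraries of ATF3 and of ARC overlapped between the metals at low levels. For ARC the fitted change was 20.01, a value that is no measure of size because both cadmium libraries at 25 µM had no read.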

How the results depend on the processing

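Of 138 genes followed one by one, 125 were called. Each of these kept its direction under every alternative that gave it a value (18 to 20 of them), and 67 also kept the call in each. The other genes named were not followed. The calls lost numbered 39 without cadmium replicate 1, 41 without cadmium replicate 2, 23 with limma-voom, 17 without mitochondrially coded genes after thinning, 15 with the library of the other barcode and 10 with upper-quartile scaling. Among uncalled genes, the sign turned for DDIT3 (0.21) and NQO1 (0.15) with the library of the other barcode, for HSP90AB1 (-0.04) with upper-quartile scaling, and for MKI67 after thinning (0.05) and with 1 library left out (-0.46 without cadmium replicate 2 to 0.19 without cadmium replicate 1).

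At 25 µM, 5951 genes were called by DESeq2, 1287 without mitochondrially coded genes after thinning, 837 by limma-voom (5139 genes tested, of which edgeR called 1437 and both 780), and 926 to 2091 with 1 library left out. Both cadmium libraries at 25 µM are replicates 1 and 2, while arsenic has 1 to 4. A term for replicates 1 and 2 against 3 and 4 gave 1714 calls at 25 µM, 747 higher in arsenic and 967 higher in cadmium. The replicate block gave 1604 at that dose, 720 higher in arsenic and 884 higher in cadmium. At 2.5 µM, DESeq2 called 501, the same term 626, the replicate block 716, and leaving out 1 replicate 66 to 200. At 0.25 µM the counts were 3 with DESeq2, 4 with no filter, 14 with that term, 55 with the replicate block and 140 within replicates 1 and 2, and at 0.025 µM 3, 2, 5, 10 and 42, with 0 at both doses for each replicate left out. For the change between 25 and 2.5 µM they were 5247 by DESeq2, 827 by limma-voom and 799 to 955 with 1 replicate left out. For copper minus lead they were 564 with the term, 631 with the replicate block, 1120 within replicates 1 and 2 and 73 to 195 with 1 replicate left out. The cause of these moves was not tested. For limma-voom the smaller number of genes is not the whole of it, as edgeR called 1437 of the same 5139 genes. The limma-voom fit estimated a separate weight for the cadmium 25 µM libraries, 1.1 against 0.998 for every other group. The 2 alternatives without mitochondrially coded genes, limma-voom, and the comparison within replicates 1 and 2 at the lower doses, of the change and of copper minus lead were added after seeing the data.

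The low depth of the cadmium pair limits genes of low expression most, and 11907 of the genes tested had no read in either library.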
